A study of Homo sapiens with 6 samples.

Results

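Tight junctions are belts of membrane strands that close the space between neighbouring epithelial cells. The strands are built from claudins, which span the membrane and either seal the junction or form pores for selected ions, and from occludin and the junctional adhesion molecules. Zonula occludens scaffolds hold them to the actin cytoskeleton. In the liver these junctions separate the bile canaliculus from the blood side of the hepatocyte, and claudin-1 and occludin also serve hepatitis C virus as entry factors.

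The genes described here are 9 of the 20289 genes in the deposited table, found by symbol: the claudin genes CLDN1, CLDN2, CLDN6, CLDN12 and CLDN14, the occludin gene OCLN, the scaffold genes TJP1 and TJP3, and F11R, which encodes junctional adhesion molecule A. They were chosen by name, with earlier results of these data known. Their mRNA was measured by poly(A) RNA sequencing in Huh7 cells, a human hepatocellular carcinoma line, with 3 libraries of UBE2S knockout (UBE2S-KO) cells and 3 libraries of wild-type (WT) cells. UBE2S is a ubiquitin-conjugating enzyme of the anaphase-promoting complex, and the series asked which genes act downstream of it. Nothing in the labels says how the knockout was made, whether its cells were 1 clone, or whether replicates were separate cultures. The p-values therefore reflect the spread between libraries alone, which may be technical.

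The libraries held 21840499 to 25840104 estimated counts in UBE2S-KO and 23300336 to 27910396 in WT. WT replicate 1 stood apart from the other WT libraries. Between its counts and theirs the chi-square divided by its degrees of freedom was 8.41 and 10.9, against 1.40 to 1.55 between UBE2S-KO libraries and 1.80 between the other WT libraries. Without it, 8457 genes were called instead of 7975, with 3 of the 9 genes higher and 3 lower as before. UBE2S itself had 47.6, 45.4 and 44.2 CPM (counts scaled to a common library size) in UBE2S-KO libraries against 234, 220 and 216 CPM in WT libraries. All 10 hepatocyte markers were expressed and tested, with 2 called higher and 7 lower in UBE2S-KO. Their summed level was 28994 to 29565 CPM in UBE2S-KO and 31942 to 32597 CPM in WT. The counts of called markers here are to be read against all tested genes. Of those, 60.1% were called, 29.4% higher and 30.7% lower. The immune marker CD3E and the endothelial marker KDR had 0 counts in every library. The summed endothelial level was 2.37 to 2.86 CPM in UBE2S-KO and 5.78 to 7.08 CPM in WT. Of 6 endothelial markers only 1, PECAM1, was tested, and it was lower (log2 fold change -1.46, SE 0.15, edgeR adjusted p = 3.68e-06). Its mean was 2.06 CPM in UBE2S-KO and 5.72 CPM in WT. Summed immune markers reached 179 to 182 CPM in UBE2S-KO and 290 to 313 CPM in WT, mostly LYZ. Of 6 immune markers 3 were tested, and all 3 were lower in UBE2S-KO. Stromal markers summed to 26.9 to 28.6 CPM in UBE2S-KO and 145 to 161 CPM in WT, where COL1A2 made up most of the level. Of 8 stromal markers 6 were tested, and 4 were higher and 2 lower. The 2 lower were COL1A2 and LUM, which were tested only because of their WT level. They reached the filter level of 0.407 CPM in 1 and 0 of 3 UBE2S-KO libraries and in 3 of 3 WT libraries. Of 7 cholangiocyte markers 6 were tested, and 1 was higher and 2 were lower. The 7 summed to 335 to 340 CPM in UBE2S-KO and 365 to 399 CPM in WT. The part of these markers in the junction results was not tested. In bulk RNA of a cultured line, a change in a part of the cells cannot be told from a change in all.

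The principal differences among the 9 genes were in claudin make-up. CLDN6 and CLDN2 were more than doubled in UBE2S-KO cells, with log2 fold changes of 1.31 and 1.25, while TJP3 was lower by 45.0%. TJP1 was slightly higher, and CLDN12 and F11R were slightly lower. CLDN1, by far the most abundant claudin, did not differ beyond the spread between libraries, and nor did OCLN or CLDN14. In all, 3 of the 9 genes were called higher and 3 lower (edgeR quasi-likelihood test, adjusted p under 0.05), in a comparison in which 60.1% of 13265 tested genes were called, 29.4% higher and 30.7% lower. The share of these genes called was therefore close to that of all genes. The size of the rise of CLDN6 and CLDN2 was less common, since 2.92% of tested genes were called higher with a log2 fold change of at least 1. Another 3.22% were called lower by as much, and none of the 9 genes was among them. Without WT replicate 1 the log2 fold changes were 1.29 for CLDN6, 1.23 for CLDN2, 0.19 for TJP1, -0.81 for TJP3, -0.22 for CLDN12 and -0.31 for F11R, all called (edgeR), and CLDN1, OCLN and CLDN14 were again not called. The median log2 fold change was -0.01 over the 9 genes and -0.00057 over all tested genes.

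**Figure D1:**
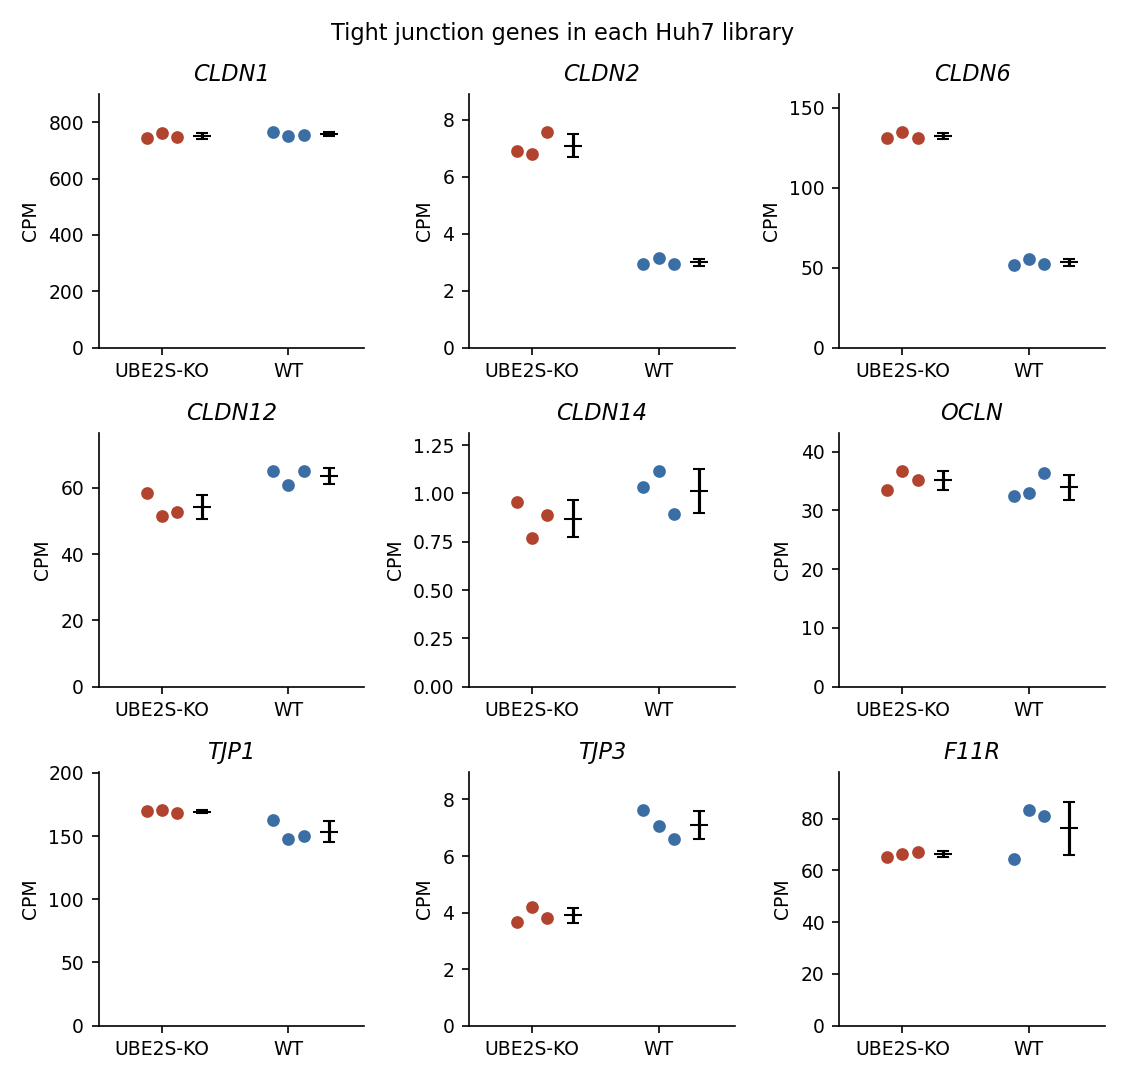
CPM of each of the 9 genes, 1 panel a gene with its own axis from 0; points are the 3 UBE2S-KO (left) and 3 WT (right) libraries, and bars are the mean and SD. CLDN2 and CLDN6 lie wholly higher and TJP3 wholly lower in UBE2S-KO, while CLDN1 and OCLN overlap.

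The upstream sequence of CLDN2 and of TJP3 is shown because these genes stood at the upper and lower ends of the changes and could be printed outside annotated exons. For CLDN6 all 250 bases before its RefSeq start overlapped exons annotated by GENCODE, and it is not printed. Both stretches are from RefSeq (GRCh38.p14), on the plus strand, 5′ to 3′, with CG dinucleotides in capitals: the 250 bases before the downstream start of CLDN2 (chrX:106918110-106918359) and 130 bases that lie upstream of annotated exon at the downstream start of TJP3 (chr19:3721487-3721616).
CLDN2: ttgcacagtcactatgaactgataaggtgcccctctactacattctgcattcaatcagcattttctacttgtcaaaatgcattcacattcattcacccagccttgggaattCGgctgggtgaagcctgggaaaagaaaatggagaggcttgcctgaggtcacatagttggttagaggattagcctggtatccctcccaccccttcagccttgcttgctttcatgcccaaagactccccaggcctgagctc
TJP3: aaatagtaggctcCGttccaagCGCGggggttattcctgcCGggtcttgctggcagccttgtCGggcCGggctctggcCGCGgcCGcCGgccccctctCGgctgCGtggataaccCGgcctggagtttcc

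The CLDN2 window held 1 CG dinucleotide and the window of its other start held 0. Such CG-poor windows, with 0 or 1 CG, were 14.7% of 35116 RefSeq promoter windows of 250 bases, whose median was 11. The 250 bases before the CLDN6 start held 18, those before the CLDN1 start 28 and those before the 2 TJP3 starts 12 and 20. The CLDN6 window lay wholly in annotated exons, and the bases after that start matched no GENCODE transcript of the gene. Whether CG content bears on the changes was not tested. Of 4 motifs searched on both strands, CAGGTG, the E-box read by Snail and ZEB repressors, was found before both OCLN starts, 1 of 4 TJP1 starts, 1 of 2 TJP3 starts and 1 of 3 CLDN14 starts, against 17.5% of all windows. TGANTCA, the motif of AP-1 factors, was found before 1 CLDN2 start (6.57% of all windows). GGAATG, read by TEAD factors, was found before 2 CLDN14 starts (11.9%). As for CLDN6, the bases after the TJP1 start with CAGGTG and after 1 of these CLDN14 starts matched no GENCODE transcript. The windows of 1 OCLN start with CAGGTG and of 1 TJP3 start without it also lay wholly in annotated exons. TATAAA was found before none of the starts searched (10.7% of all windows). None of the 4 motifs was found in the windows of CLDN6, CLDN1 or CLDN12. F11R had no entry and was not searched.

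CLDN6 is an oncofetal claudin, expressed in embryonic epithelia and low in most adult tissues. It spans 3014712 to 3020071 on chromosome 16 (minus strand, GRCh38, as annotated by GENCODE release 29, ENSG00000184697). It had 131, 135 and 131 CPM in UBE2S-KO libraries (2884, 3152 and 3408 counts), against 51.9, 55.5 and 52.5 CPM in WT libraries (1404, 1295 and 1473 counts). Every UBE2S-KO library stood above every WT library, and each group was tight. The log2 fold change was 1.31 (SE 0.04, edgeR adjusted p = 3.25e-11), a fold of 2.48. TNFRSF12A, on the opposite strand, shares 40 of the 1739 exonic bases of CLDN6 and also rose, with 73.6 ± 0.968 CPM in UBE2S-KO and 52.9 ± 4.79 CPM in WT (SD, n = 3 each). Its log2 fold change was 0.48 (SE 0.05, edgeR adjusted p = 8.77e-06). No source used here says whether counting kept the strand, so reads in those bases cannot be told apart.

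CLDN2 forms pores for cations and water and is a mark of leaky epithelia. It spans 106900164 to 106930861 on chromosome X (plus strand, ENSG00000165376). It had 6.91, 6.80 and 7.56 CPM in UBE2S-KO libraries (152, 159 and 196 counts), against 2.92, 3.13 and 2.92 CPM in WT libraries (79, 73 and 82 counts). The groups did not overlap, as was so for 65.8% of tested genes and for 5 of these 9. The log2 fold change was 1.25 (SE 0.11, edgeR adjusted p = 6.36e-07), with a wider 95% interval, 1.02 to 1.48, than that of CLDN6, 1.23 to 1.39. RIPPLY1, whose exons overlap those of CLDN2 on the other strand, had at most 8 counts in any library.

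CLDN1 is the main sealing claudin of hepatocytes. It spans 190305701 to 190322475 on chromosome 3 (minus strand, ENSG00000163347). It had 745, 762 and 748 CPM in UBE2S-KO libraries against 765, 751 and 755 CPM in WT libraries. The groups overlapped, and the log2 fold change was -0.01 (SE 0.03, edgeR adjusted p = 0.748), with a 95% interval of -0.07 to 0.05. The 3 genes with the most similar pattern over the 6 libraries were NOP56, IL6ST and SPATS2, at distances of 0.0144, 0.0221 and 0.0266 in centred log2(CPM + 1). For CLDN6 they were UACA, FZD5 and DUSP4, at 0.111, 0.112 and 0.113, with log2 fold changes of 1.31 (SE 0.03), 1.26 (SE 0.03) and 1.29 (SE 0.06).

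CLDN12, which unlike most claudins lacks the C-terminal motif that binds zonula occludens scaffolds, spans 90383721 to 90513402 on chromosome 7 (plus strand, ENSG00000157224). It had 58.4, 51.4 and 52.8 CPM in UBE2S-KO libraries against 65.0, 60.7 and 64.9 CPM in WT libraries. All UBE2S-KO values were lower, and the log2 fold change was -0.23 (SE 0.05; edgeR, adjusted p = 0.00156). GTPBP10 and CDK14, which share 347 and 201 of the 6741 exonic bases of CLDN12 on the same strand, also fell, by 0.50 (SE 0.06) and 0.13 (SE 0.04) on the log2 scale. CLDN14, a sealing claudin of the ear, kidney and liver, was near the limit of detection. It had 21, 18 and 23 counts in UBE2S-KO libraries and 28, 26 and 25 in WT libraries, or 0.955, 0.770 and 0.887 CPM against 1.03, 1.11 and 0.892 CPM. The groups overlapped in CPM, and at this depth the 95% interval of the log2 fold change ran from -0.72 to 0.29 (edgeR adjusted p = 0.454). CLDN14 spans 36460621 to 36576569 on chromosome 21 (minus strand, ENSG00000159261).

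Per length of exon, claudin mRNA differed in make-up. CLDN6 made up 24.8%, 25.1% and 24.8% of the summed CPM per kb of all 24 claudin genes in UBE2S-KO libraries, against 11.4%, 12.3% and 11.7% in WT libraries. CLDN1 made up 67.1% ± 0.229 in UBE2S-KO and 79.6% ± 0.394 in WT (SD, n = 3 each), although its own level per kb was 205 ± 2.45 in UBE2S-KO and 207 ± 1.92 in WT. The summed level was 306 ± 2.72 CPM per kb in UBE2S-KO and 260 ± 2.14 CPM per kb in WT. No group overlapped the other in any of these values except the level of CLDN1. The exact two-sided permutation p was 0.1 for the CLDN6 share, the CLDN1 share and the sum, the smallest that 3 libraries against 3 allow. These are not separate results, since the CLDN6 level enters each of them. That level was 76.2 ± 1.16 CPM per kb in UBE2S-KO and 30.7 ± 1.11 CPM per kb in WT. Shares rest on the exon-union lengths of GENCODE release 29, and the isoforms used in these cells were not measured.

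**Figure D2:**
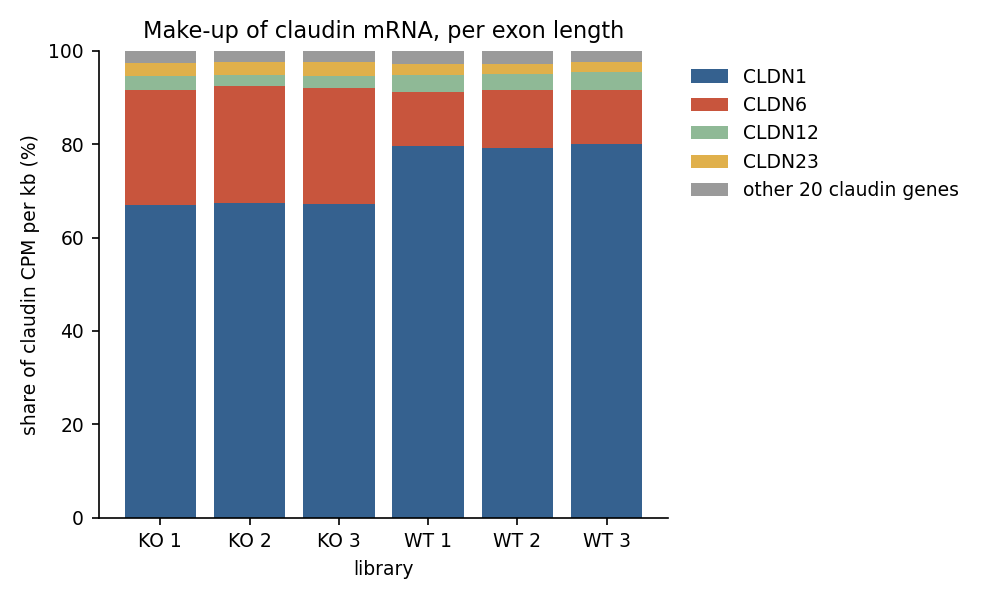
Share of CLDN1, CLDN6, CLDN12 and CLDN23, and of the remaining claudin genes pooled, in the summed claudin CPM per kb of exon, in percent. Bars are the UBE2S-KO (left) and WT (right) libraries. The CLDN6 segment is 24.8% to 25.1% of the bar in UBE2S-KO libraries and 11.4% to 12.3% in WT libraries.

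OCLN encodes occludin, a tetraspan protein of the strand that regulates the junction. It spans 69492292 to 69558104 on chromosome 5 (plus strand, ENSG00000197822). It had 33.5, 36.7 and 35.1 CPM in UBE2S-KO libraries against 32.5, 32.9 and 36.3 CPM in WT libraries. The groups overlapped, and the log2 fold change was 0.05 (SE 0.06, edgeR adjusted p = 0.471), with a 95% interval of -0.07 to 0.17.

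F11R, the gene of junctional adhesion molecule A, an immunoglobulin-like adhesion protein, spans 160995211 to 161021348 on chromosome 1 (minus strand, ENSG00000158769). It had 65.3, 66.4 and 67.3 CPM in UBE2S-KO libraries against 64.5, 83.2 and 81.0 CPM in WT libraries. WT replicate 1 lay below all UBE2S-KO values, and the other WT libraries lay above them. The log2 fold change was -0.20 (SE 0.07, edgeR adjusted p = 0.036). It was -0.31 without WT replicate 1 (edgeR adjusted p = 1.75e-08), and the call was lost when any other single library was left out, with adjusted p between 0.078 and 0.157. The counts were not whole numbers, and AL591806.3, a protein-coding annotation on the same strand, shares 1853 of the 5066 exonic bases of F11R. With the counts of both summed, a choice made after seeing the data, the level was 89.0, 88.5 and 87.2 CPM in UBE2S-KO libraries against 93.3, 103 and 108 CPM in WT libraries. These values did not overlap, and the log2 fold change was -0.20 (SE 0.05, edgeR adjusted p = 0.00272).

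The zonula occludens scaffolds bind claudins, occludin and junctional adhesion molecules. TJP3 spans 3708109 to 3750813 on chromosome 19 (plus strand, ENSG00000105289). It had 3.68, 4.19 and 3.82 CPM in UBE2S-KO libraries (81, 98 and 99 counts), against 7.62, 7.08 and 6.598 CPM in WT libraries (206, 165 and 185 counts). All UBE2S-KO values were lower, and the log2 fold change was -0.86 (SE 0.11; edgeR, adjusted p = 1.63e-05). TJP1, the best known of these scaffolds, spans 29699367 to 29968865 on chromosome 15 (minus strand, ENSG00000104067). It had 170, 170 and 168 CPM in UBE2S-KO libraries against 163, 148 and 150 CPM in WT libraries, which put the log2 fold change at 0.14 (SE 0.04, edgeR adjusted p = 0.00583). All UBE2S-KO values were higher, but WT replicate 1 came close to them.

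Across all 9 genes, levels per kb of exon ran in UBE2S-KO from CLDN1 and CLDN6 (205 and 76.2) through TJP1 (15.03), F11R (13.1), CLDN12 (8.04), OCLN (5.19), CLDN2 (2.08) and TJP3 (0.924) to CLDN14 (0.305). In WT the order differed at 2 places. F11R (15.1 ± 2.02) and TJP1 (13.6 ± 0.737) were not apart beyond their spread in WT, with overlapping libraries, and TJP3 (1.68 ± 0.121) stood above CLDN2 (0.877 ± 0.0352; CPM per kb, SD, n = 3).

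**Figure D3:**
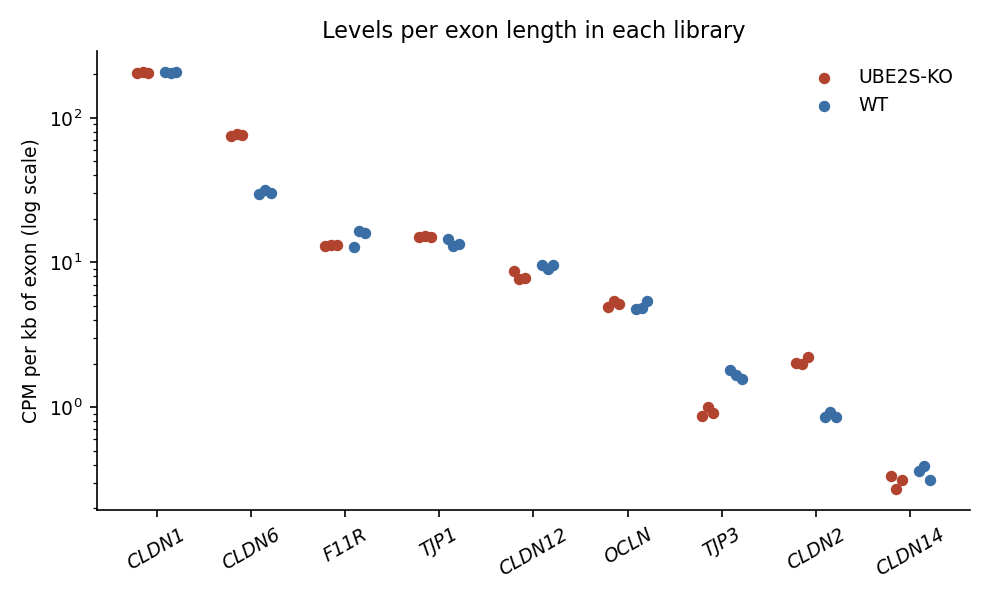
CPM per kb of exon for each gene on a log axis, ordered by the WT mean; points are the 3 UBE2S-KO (left of each pair) and 3 WT (right) libraries. CLDN2 lies above TJP3 in UBE2S-KO and below it in WT, and CLDN1 is highest in every library.

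To show where a gene lay among shifted neighbours, each was set beside the median log2 fold change of the 25 tested genes on either side. Around CLDN6 and CLDN2 that median was 0.03 and 0.03, and with it removed the 2 genes stood at 1.29 and 1.22. None of the 50 neighbours of CLDN6 had a log2 fold change of at least its size in either direction, and 6 of 50 did for CLDN2. TJP3 lay among falling genes: 40 of its 50 neighbours were called lower and 3 higher, with a median of -0.52. With that removed it was at -0.35 (adjusted p = 0.0152, from the edgeR standard error). Around CLDN12, 29 of 50 neighbours were lower and 3 higher, with a median of -0.30, and with it removed CLDN12 was at 0.06 and no longer called (edgeR-based adjusted p = 0.306). The neighbours of CLDN1 had a median of -0.17, and relative to them CLDN1 was at 0.16 (edgeR-based adjusted p = 2.15e-04). F11R lay against its neighbours, whose median was 0.12. For TJP1 (36 neighbours), OCLN and CLDN14 the medians were 0.00038, 0.02 and -0.01.

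**Figure D4:**
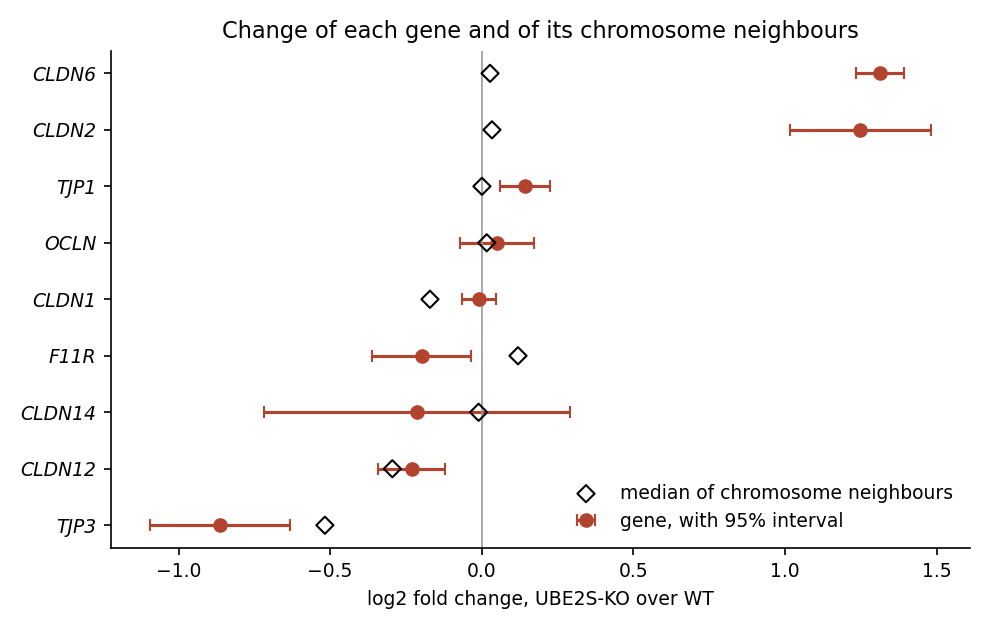
Log2 fold change of UBE2S-KO over WT for each gene (filled points, 95% interval from the edgeR fit) and the median of its tested chromosome neighbours (open diamonds). The diamonds of CLDN6 and CLDN2 lie near 0, at 0.03 and 0.03, and those of TJP3 and CLDN12 at -0.52 and -0.30.

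Further junction genes were taken from 8 lists of 89 genes, of which 71 were tested. Of these, 24 were higher and 23 lower, with a median log2 fold change of -0.02, where 29.4% of all tested genes were higher, 30.7% lower and 60.1% called either way. The counts of single lists rest on few genes and are to be read against the same shares. Among the other claudins, 7 of 19 were tested, 1 rose and 3 fell (median -0.30). CLDN23 rose, with 18.7 ± 1.20 CPM in UBE2S-KO and 12.7 ± 0.624 CPM in WT (SD, n = 3 each; log2 fold change 0.57, SE 0.07, edgeR adjusted p = 1.62e-05). CLDN19, a claudin of the kidney tubule, fell, with 7, 13 and 14 counts in UBE2S-KO libraries and 43, 34 and 24 in WT libraries. CLDN18 had 3, 1 and 1 counts in UBE2S-KO libraries and 14, 10 and 13 in WT libraries, so it was tested only because of its WT level. The same held for CLDN19, which reached the filter level of 0.407 CPM in 2 of 3 UBE2S-KO libraries and in 3 of 3 WT libraries. CLDN16 fell by 0.31 (SE 0.11) and was at -0.14 relative to its neighbours, where it was not called. Its call was also lost without WT replicate 1, WT replicate 2, UBE2S-KO replicate 1 or UBE2S-KO replicate 3 (edgeR adjusted p 0.0566 to 0.101). CLDN9, which lies in the same gene cluster as CLDN6, had 6, 13 and 12 counts in UBE2S-KO libraries and 11, 6 and 5 in WT libraries and was not tested, and the 12 untested claudins had at most 17 counts in any library.

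Among 7 tested membrane proteins of the junction, 2 rose and 2 fell (median -0.11). LSR encodes angulin-1, which marks the corners where 3 cells meet. It fell to 24.1, 25.2 and 24.8 CPM in UBE2S-KO libraries, against 58.0, 53.0 and 51.4 CPM in WT libraries (log2 fold change -1.13, SE 0.05, edgeR adjusted p = 4.15e-09). Its chromosome neighbours had a median of -0.40, and relative to them it was at -0.74. CRB3, an apical polarity protein, fell by 0.65 (SE 0.09) among neighbours with a median of -0.34, and was at -0.31 relative to them. ESAM, an adhesion molecule best known from endothelium, rose at a low level, with 21, 36 and 33 counts in UBE2S-KO libraries and 16, 10 and 14 in WT libraries (log2 fold change 1.297, SE 0.27, edgeR adjusted p = 0.00126). CXADR, an adhesion protein that is also a virus receptor, rose by 0.13 (SE 0.04). That call was lost without UBE2S-KO replicate 2 or 3 (edgeR adjusted p = 0.0871 and 0.0816), and the value was 0.08 without WT replicate 1. It was also lost relative to its neighbours (0.10, edgeR-based adjusted p = 0.0632).

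Scaffolds outside the 9 genes had 8 of 13 higher and 2 lower (median 0.14), against 29.4% and 30.7% of all tested genes. With DESeq2 5 were higher and 1 lower. The angiomotin genes rose, AMOTL2 to 289 CPM in UBE2S-KO against 151 CPM in WT (means, n = 3 each; log2 fold change 0.94, SE 0.03, edgeR adjusted p = 1.66e-10) and AMOT by 0.65 (SE 0.05). PATJ, a scaffold of the Crumbs complex, rose by 0.82 (SE 0.22) at 1.59 ± 0.0932 CPM in UBE2S-KO and 0.902 ± 0.195 CPM in WT. CGNL1, a cingulin paralogue, fell by 0.35 (SE 0.04) and MAGI3 by 0.17 (SE 0.06). The MAGI3 call was lost without UBE2S-KO replicate 1 or 2 (edgeR adjusted p = 0.0787 and 0.112) and with DESeq2 (adjusted p = 0.0853). Relative to their neighbours CGNL1 was at -0.18 and MAGI3 at -0.12, where MAGI3 was not called (edgeR-based adjusted p = 0.109).

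Apical-basal polarity genes had 5 of 11 higher and 1 lower (median 0.02). PARD3B (0.55, SE 0.05), LLGL1 (0.43, SE 0.04) and SCRIB (0.30, SE 0.03) rose on the log2 scale. SCRIB was at 0.13 relative to its neighbours. The gene that fell was PRKCZ, an atypical protein kinase C that phosphorylates polarity proteins. It had 1.09, 1.07 and 0.964 CPM in UBE2S-KO libraries against 9.02, 7.81 and 6.31 CPM in WT libraries (log2 fold change -2.89, SE 0.18, edgeR adjusted p = 3.65e-08). Its paralogue PRKCI had 93.0 CPM in UBE2S-KO and 92.8 CPM in WT, and was not called (edgeR adjusted p = 0.953).

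Genes that signal at the junction had 4 of 12 higher and 5 lower (median -0.03). ARHGEF18, an activator of RhoA, rose to 237 ± 1.52 CPM in UBE2S-KO, against 133 ± 1.65 CPM in WT (SD, n = 3 each; log2 fold change 0.84, SE 0.03, edgeR adjusted p = 2.08e-10). ARHGEF11 (0.23, SE 0.03) and RHOA (0.14, SE 0.03) also rose. YBX3, a Y-box factor that binds the zonula occludens scaffold, fell by 0.72 (SE 0.04), the kinase gene STK11 by 0.49 (SE 0.03) and CDC42 by 0.29 (SE 0.03). With the shift of their neighbours removed, ARHGEF11, STK11 and CDC42 were at 0.06, -0.06 and -0.07 and were no longer called. YBX3 was then at -0.38 and RHOA at 0.08, both still called.

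Nectins and the E-cadherin complex, which form the adherens junction below the tight junction, had 2 of 8 higher and 4 lower (median -0.07). CDH1, the E-cadherin gene, fell to 67.2, 66.6 and 63.3 CPM in UBE2S-KO libraries, against 82.1, 81.5 and 81.1 CPM in WT libraries (log2 fold change -0.31, SE 0.04, edgeR adjusted p = 8.77e-06). NECTIN1 (-0.43, SE 0.06) and CTNND1 (-0.21, SE 0.03) fell, and AFDN rose (0.23, SE 0.03), though its neighbours had a median of 0.27 and relative to them it was at -0.05. NECTIN2 rose by 0.10 (SE 0.04), a call that was lost with DESeq2 (adjusted p = 0.0723) and without WT replicate 2, WT replicate 3, UBE2S-KO replicate 1 or UBE2S-KO replicate 3 (edgeR adjusted p 0.121 to 0.172). Relative to its neighbours it was at 0.24.

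Snail, ZEB and TWIST factors are known as repressors of claudin, occludin and E-cadherin genes. Of 7, 5 were tested, 1 was higher and 2 were lower (median -0.10). ZEB1, the most abundant of them, had 44.0 ± 2.52 CPM in UBE2S-KO and 47.3 ± 2.71 CPM in WT (SD, n = 3 each). It was not called (log2 fold change -0.10, SE 0.05, edgeR adjusted p = 0.118). SNAI1 was not called either, at 5.14 CPM in UBE2S-KO and 5.01 CPM in WT (edgeR adjusted p = 0.832). ZEB2 fell to 0.909, 1.24 and 1.04 CPM in UBE2S-KO libraries, against 4.29, 4.03 and 4.17 CPM in WT libraries (log2 fold change -1.96, SE 0.16, edgeR adjusted p = 4.49e-07). SNAI2 had 6, 14 and 7 counts in UBE2S-KO libraries and 43, 25 and 32 in WT libraries, and reached the filter level in 1 of 3 UBE2S-KO libraries and in 3 of 3 WT libraries. SNAI3 rose by 0.77 (SE 0.30, edgeR adjusted p = 0.0411), but the call was lost when any library but WT replicate 2 was left out (edgeR adjusted p 0.0527 to 0.178), and it reached the filter level in 3 of 3 UBE2S-KO libraries and in 2 of 3 WT libraries. TWIST1 and TWIST2 had 0 counts in every library.

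CLDN1 and OCLN are hepatitis C virus entry factors, and Huh7 is the line in which that entry is mostly studied. Of 8 other entry factors, 1 was higher and 4 were lower (median -0.13). The tetraspanin gene CD81 rose to 74.8, 75.4 and 77.8 CPM in UBE2S-KO libraries, against 42.04, 48.4 and 46.8 CPM in WT libraries (log2 fold change 0.73, SE 0.05, edgeR adjusted p = 7.44e-08). EGFR fell by 0.48 (SE 0.03), NPC1L1 by 0.26 (SE 0.05) and TFRC by 0.18 (SE 0.05). TFRC was at -0.03 relative to its neighbours and no longer called. SCARB1, which like CD81 binds the viral envelope, had 268 CPM in UBE2S-KO and 269 CPM in WT (log2 fold change -0.0039, SE 0.04).

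**Figure D5:**
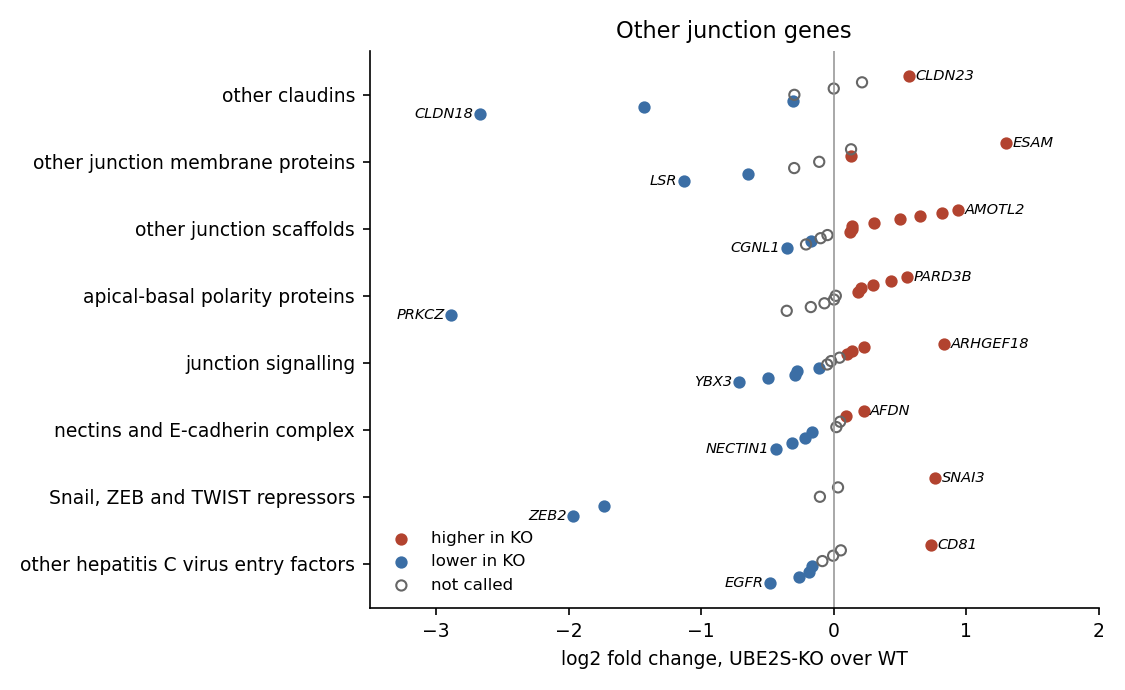
Log2 fold change of UBE2S-KO over WT for the 71 tested genes of the 8 further junction lists; filled points were called higher or lower (edgeR adjusted p under 0.05), open points were not, and the lowest and highest gene of each list are named. PRKCZ, CLDN18 and ZEB2 lie lowest, at -2.89, -2.66 and -1.96. CLDN18 (SE 0.51) had 3, 1 and 1 counts in UBE2S-KO libraries and was tested only because of its WT level.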

How the data were processed

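The authors deposited 1 table with the estimated counts of 6 libraries, not normalized and in part not whole numbers. DESeq2, StringTie 1.3.1, HISAT2 and Bowtie2 2.2.8 are named without roles, per the submitters' processing notes; the build and annotation were not given in the sources used here. The counts were rounded to whole numbers. edgeR 4.0.16 in R 4.3.3 tested UBE2S-KO against WT by quasi-likelihood on 13265 genes kept by filterByExpr (minimum count 10), with TMM scaling, no covariate and Benjamini-Hochberg adjustment over all tested genes at 0.05. Standard errors were derived from the fold change and F statistic. CPM used the TMM-scaled library size of tested genes; CPM per kb divided it by the exon-union length. GENCODE release 29 (GRCh38) matched 20171 identifiers (99.4%). On simulated counts of these 13265 genes, edgeR recovered 70% of 50 genes changed by 0.3 on the log2 scale, 86% at 0.5, 94% at 1 and 100% at 2, and 7.89% of its calls were false. Only 50 genes of each size were changed there, picked at random, whereas 60.1% of genes were called in the data. The simulated shares therefore need not hold for this comparison.

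The 9 genes and all lists were chosen with earlier results of these data known. Named besides the 9 were up to 3 called genes per list and direction with the largest change. The 3 genes nearest to CLDN6 and to CLDN1 were also named. PRKCI, CLDN9, SCARB1, ZEB1, SNAI1 and the genes overlapping the 9 were named after their values were seen. The alternatives were other scalings, filters, DESeq2 1.42.0, a replicate block, each library left out, a threshold of 0.01 and removal of the neighbours' median, whose own error was not counted. A gene of the lists is not reported here and was left out of their counts.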

Additional observations from a re-analysis of the deposited data

How the results depend on the processing

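The number of the 9 genes called was 3 higher under every alternative but removal of the neighbours' median (4), and 2 or 3 lower. CLDN2, CLDN6, TJP1 and TJP3 kept their direction and call under every alternative run, and CLDN14 and OCLN were called under none. CLDN1 was at 0.0031 with total counts alone, a change of sign from -0.01, and was called in neither. That scaling also moved the median of all tested genes, from -0.00057 to 0.0131. With the neighbours' median subtracted, CLDN1 was at 0.16 and CLDN12 at 0.0636. CLDN14 was too low to be tested at a mean of at least 1 CPM. F11R lost its call with total counts alone (-0.19, edgeR adjusted p = 0.065) and at a threshold of 0.01 (-0.20). It also lost it in 5 of the 6 fits without 1 library, with log2 fold changes from -0.21 to -0.13. The fit without WT replicate 1 kept the call, at -0.31. Genes called in all numbered 7975, 6725 with DESeq2 and 7142 to 8457 without 1 library. Same-numbered libraries did not deviate together (correlations 0.0057, -0.01 and 0.0033), so no pairing by number was seen. Whether any shared a culture or batch is not in the labels and cannot be told from these correlations. With the replicate block 7913 genes were called and no call among the 9 genes changed. Of the 35 called genes named from the lists, 10 lost their call under at least 1 alternative in which they were tested. They were CLDN16, CXADR, MAGI3, NECTIN2, SNAI3, ARHGEF11, STK11, CDC42, AFDN and TFRC. At a mean of at least 1 CPM, 5 named genes (CLDN18, CLDN19, ESAM, SNAI2 and SNAI3) were not tested and so had no call, which left 1 of the further claudins and 1 repressor called lower, against 3 and 2. Among the lists, the scaffolds called higher numbered 8, against 5 with DESeq2 and 5 at a threshold of 0.01. Without WT replicate 1, 2 entry factors were called higher and 2 polarity genes lower, against 1 and 1, and 2 further claudins were called higher without WT replicate 1, WT replicate 2 or UBE2S-KO replicate 3, against 1. Low counts limit CLDN14 and the weakest claudins. Groups of 3 were not tested for outlying values gene by gene.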
